A study of Oryza sativa with 6 samples.

Results

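In rice seedlings of the dwarf line Epi-df, 45 of the 57258 non-control probe sets of the array lay far below the wild type in every single array. They were chosen by their values: the lowest of the 3 wild type intensities is at least 300, and the highest of the 3 Epi-df intensities is no more than 50% of it. The lowest wild type value over the highest Epi-df value is called the gap between the groups, and the rule thus asks for a gap of at least 2-fold. GA20OX2, PIN5A and MADS50 also met these limits, and with MADS55 and all JAZ genes they are left out here by name. Of the 45 probe sets, 6 were near-complete losses, in which every Epi-df value lay under the median of its array and at least 5-fold under the lowest wild type value, and 39 were partial falls. Because the choice used the Epi-df and wild type values, the differences between the groups are given below as a description and carry no test.

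The 6 arrays hold 3 biological replicates of Epi-df and 3 of the wild type, both of japonica rice, from whole seedlings grown in artificial soil to an age of 3 weeks. The labels name the genotypes only as Epi-df and wild type. Epi-df is known as a stable epigenetic variant in which FIE1, a Polycomb gene that is normally imprinted and active in the endosperm, is expressed in vegetative tissue. No batch is named, and how many plants were pooled for a replicate is not stated in the sources used here.

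Polycomb group proteins form complexes that place a repressive methyl mark on histone H3, and FIE proteins are a subunit of one of them. The complexes are known for keeping genes silent outside their proper tissue or stage. An array of RNA levels does not tell direct targets of a complex from indirect ones. In RNA from whole seedlings, fewer cells of a type and less RNA per cell cannot be told apart either.

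The median intensity of an array was 109.1 to 114.5 in Epi-df and 108.1 to 114.5 in the wild type. RBCS, the small subunit of Rubisco and a marker of green tissue, stood at 23271 to 24905 in Epi-df and 24112 to 24975 in the wild type. These values were at or near the highest of their arrays, where a difference may not show. Further, less bright RBCS probe sets had log2 changes of 0.07, -0.003 and 0.12, with overlapping groups. LHCP, for a light-harvesting protein, had 8426, 11068 and 8245 in Epi-df, against 6493, 5390 and 6635 in the wild type, and CAB2R, of the same kind, had 19020.0, 19960.0 and 17779 in Epi-df, against 15621, 15234 and 15847 in the wild type. Both were higher in every Epi-df array (log2 change 0.57 and 0.28, limma adjusted p = 0.0862 and 0.0783), and a further CAB2R probe set, with a limma adjusted p of 0.0308, had a log2 change of 0.64, which is less than 2-fold. The root silicon channel gene LSI1 was measured at 473 to 662 in Epi-df and 369 to 446 in the wild type. The root silicon exporter gene LSI2 was dim, at 20.8 to 26.3 in Epi-df and 20.7 to 23.5 in the wild type. PHT1-6, also on the root list, was dim too, at 47.6 to 59.5 in Epi-df and 43.1 to 59.0 in the wild type. How much root the RNA represents was not tested. RCA, also on the green leaf list, had 11345, 13057 and 8776 in Epi-df, against 10793, 12594 and 11640 in the wild type (log2 change -0.09). LSI6, on the root list, was at 3205 to 3629 in Epi-df and 2776 to 2980 in the wild type. Limma called 0 of 4 tested green leaf markers and 0 of 2 tested root markers. Of each list 2 had an unadjusted p under 0.05, all 4 of them higher in Epi-df. The log2 changes of the green leaf markers were below 0 in 2 and above 0 in 2. OSH1, a marker of the shoot meristem, was at 268 in Epi-df replicate 1, and at 17.6 and 18.8 in the other Epi-df arrays and 13.6 to 30.2 in the wild type. OSH71, the other meristem marker, had 233, 135 and 197 in Epi-df, against 28.2, 25.9 and 90.6 in the wild type, and so was higher in every Epi-df array (log2 change 1.78 ± 0.36, SE, limma adjusted p = 0.0605). The summed intensity of 17 TIFY genes was 35193, 25092 and 30157 in Epi-df replicates 1 to 3 and 68981, 55921 and 39860 in wild type replicates 1 to 3. Most of them are JAZ genes, known to respond to wounding and jasmonate. TIFY1A, TIFY2A, TIFY2B and TIFY8 carry no JAZ name and had log2 ratios of -0.10, 0.13, -0.05 and 0.01. In the list of wound and jasmonate genes limma called 1 of 19 tested, TIFY11D, lower in Epi-df. In this list 11 had an unadjusted p under 0.05, and log2 changes were below 0 in 17 and above 0 in 2. Of 6 tested genes matched by the symbols of the panicle list, limma called 1, MADS16, higher in Epi-df (log2 change 1.33, limma adjusted p = 0.00204). The 6 include genes listed also as MADS18 and 4CL4, which were matched only through the shared symbols MADS2 and RAL1. They may be no panicle markers. Over all tested probe sets 0.608% were called. Whether the green leaf, root, meristem, jasmonate, panicle or TIFY differences play a part in the values below was not tested.

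Among the 16230 probe sets with a lowest wild type value of at least 300, the limits were met by 0.296%, and in 13.2% the Epi-df values all lay under the wild type values by a gap of any size. The opposite rule, with a lowest Epi-df value of at least 300 and a highest wild type value of no more than 50% of it, found 20 probe sets. Limma, fitted over 34355 probe sets, called 209 at a change of at least 2-fold with a Benjamini-Hochberg adjusted p below 0.05, which is 0.608% of those tested. Of these, 149 (0.434%) were lower in Epi-df. All 45 chosen probe sets were tested and 44 were among the lower calls, and since both rest on the same values nothing further is read from this count. The exception was LOC4351514. The other lower calls had a wild type value under 300 (36) or a gap under 2-fold (66), apart from the 3 that met the limits and were left out by name. In all, 5 lower calls were probe sets left out by name, these 3 among them.

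The platform annotation pairs 30 of the 45 probe sets with 1 gene each, 28 genes in all, and 15 have no single gene in it. Of the genes, 3 have a name of their own, SWEET14, Adh2 and APY3. The others are called by locus or probe set, and no function is given for them here.

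The steepest loss was that of LOC4350599, on chromosome 11. Its intensity was 28.1, 9.03 and 19.6 in the Epi-df arrays, against 1085, 709 and 832 in the wild type arrays. All Epi-df values were thus in the range of the dimmest probe sets, and the Epi-df mean was 2.16% of the wild type mean (18.9 ± 9.55 and 875.4 ± 192, mean ± SD, n = 3 each; log2 ratio -5.53). LOC4335497, on chromosome 4, had 15.7, 22.6 and 36.5 in Epi-df, against 509, 526 and 510.5 in the wild type, where the arrays hardly differed. Its Epi-df mean was 4.83% of the wild type mean.

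LOC4331452, on chromosome 3, was the most even of the near-complete losses within Epi-df. It stood at 67.4, 68.4 and 63.2 in Epi-df, against 615, 593 and 608 in the wild type (log2 ratio -3.19). LOC4346837, on chromosome 9, was at 78.6, 59.6 and 77.2 in Epi-df and at 639, 445 and 399 in the wild type. With a lowest wild type value 5.08 times the highest Epi-df value, it lay just inside the limit of the class.

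The remaining near-complete losses are a pair of probe sets of the design cluster Os.50472, which the annotation gives to no single gene. Probe set Os.50472.2.S1_x_at had 17.01, 110.6 and 106.2 in Epi-df, against 1324, 1188 and 1531 in the wild type. Probe set Os.50472.2.S1_s_at had 16.3, 68.2 and 56.5 in Epi-df and 641, 666 and 781 in the wild type. Both were lowest in Epi-df replicate 1 and highest in wild type replicate 3. A further probe set of the cluster, Os.50472.1.S1_at, was too dim in the wild type for the rule, with 24.3, 32.1 and 33.4 in Epi-df and 133, 115 and 145 in the wild type, and its groups did not overlap. The suffixes _s_at and _x_at mark probe sets that may bind several transcripts, so the cluster may report more than 1 gene.

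The 6 Epi-df means of the near-complete losses ranged from 2.16% to 14.5% of the wild type means, with a median of 6.27%. In the 39 partial falls the range was 6.42% to 44.1% and the median 28.8%. Another 4 partial falls also had a gap of at least 5-fold, but at least 1 Epi-df value above the median of its array. Their Epi-df means were 6.42% to 10.1% of the wild type means. Relative to the wild type they fell further than the near-complete losses LOC4331452 (11.0%) and LOC4346837 (14.5%), and only their Epi-df level kept them out of that class.

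These 4 deep falls lie on chromosomes 4 and 8. LOC4346183, on chromosome 8, was at 196, 223 and 153 in Epi-df, against 3136, 3552 and 2232 in the wild type (log2 ratio -3.96). LOC4344999, also on chromosome 8, was at 345, 116 and 270.05 in Epi-df and at 3209, 3092 and 2875 in the wild type. Wild type arrays lay close together for this locus, while the Epi-df arrays differed by up to 2.96-fold.

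LOC4344914, the third of this group on chromosome 8, had 214, 63.3 and 228 in Epi-df, against 1697, 1754 and 1729.5 in the wild type. Its Epi-df replicate 2 was far under the other Epi-df arrays, as it was for LOC4344999. LOC4335518, on chromosome 4, had 136, 199 and 238 in Epi-df, against 2198, 1884 and 1609 in the wild type, and its Epi-df mean was 10.1% of the wild type mean.

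Several genes are measured by more than 1 probe set, and the further probe sets show how far a fall holds across a transcript. For 9 of the 28 genes there were 10 further probe sets outside the 45. Of these, 9 had a lower mean in Epi-df and 8 had groups that did not overlap, against 8.31% of all non-control probe sets with every Epi-df value under the wild type values. They read the same genes as the chosen probe sets, in the same RNA, and are no independent samples. LOC4350599 had a pair of them, both dim: Os.11745.1.S1_at with 14.4, 11.5 and 12.9 in Epi-df and 71.4, 52.3 and 71.5 in the wild type, and Os.11745.1.S1_x_at with 9.41, 7.10 and 9.53 in Epi-df and 146, 96.7 and 117 in the wild type. The loss at this locus was therefore seen in all 3 of its probe sets.

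For 3 loci the further probe set hardly followed. That of LOC4346183 stood at 145, 175 and 121 in Epi-df and 152, 157 and 152 in the wild type, so its groups overlapped (log2 ratio -0.07). That of LOC4335497 had 78.8, 100.5 and 88.1 in Epi-df and 113, 106 and 118 in the wild type, a log2 ratio of -0.33 beside -4.37 for the chosen one. For LOC4327636 it was at 254, 233 and 266 in Epi-df and 232, 233 and 287 in the wild type, while the chosen probe set had 355, 329.7 and 352 in Epi-df, against 1285, 1105 and 1109 in the wild type. At this locus the groups overlapped in the one and were far apart in the other. In all 3 loci the further probe set was far dimmer in the wild type than the chosen one. The chosen ones stood there at 2232 to 3552 for LOC4346183 and 509 to 526 for LOC4335497. A fall may therefore show less in the further probe sets. Which of the probe sets reports the main transcript was not tested.

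The probe sets of other genes had like ratios. LOC4331629, on chromosome 3, is in the list with both of its probe sets, with log2 ratios of -2.07 and -2.16. OsAffx.24981.1.S1_at had 219, 181 and 137 in Epi-df, against 711, 777 and 772 in the wild type, and Os.27918.1.A1_at had 102, 76.1 and 52.4 in Epi-df, against 307, 371 and 351 in the wild type. In both, Epi-df replicate 1 was the highest of its group and replicate 3 the lowest. The pairs of LOC4342852 (log2 ratios -1.21 and -1.19) and LOC9271323 (-1.18 and -1.10) also nearly coincided, and those of LOC4336447, LOC4343660 and LOC4342731 had the further probe set at -1.71, -1.496 and -1.02, beside -2.73, -2.01 and -1.58 for the chosen one.

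SWEET14 encodes a sugar transporter of the plasma membrane, also known as a gene that Xanthomonas bacteria switch on in infected rice leaves. Its probe set with the suffix _at had 155, 153 and 169 in Epi-df, against 384, 519.8 and 470.2 in the wild type. The one with the suffix _x_at had 179, 185 and 187 in Epi-df, against 405, 558 and 535 in the wild type. The Epi-df means were 34.7% and 36.8% of the wild type means, and the Epi-df arrays lay closer together than the wild type arrays in both.

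Of the other SWEET genes, 9 were bright enough to be tested and limma called 0 of them, with 2 at an unadjusted p under 0.05. Their log2 changes were below 0 in 5 and above 0 in 4, with a median of -0.02, beside 0.01 over all tested probe sets. SWEET2A had 1090, 841 and 1002 in Epi-df, against 1904, 1776 and 1257 in the wild type. Its groups did not overlap, and its log2 change of -0.73 ± 0.17 (SE) did not pass (limma adjusted p = 0.0869, and 0.0369 to 0.285 when 1 array was left out). SWEET4 (log2 change 0.03 ± 0.07, SE) and SWEET1A (-0.06 ± 0.09) had overlapping groups, and SWEET11, a sucrose transporter gene known from rice grains, had 0.18 ± 0.13.

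Adh2 encodes an alcohol dehydrogenase, the enzyme of the last step of alcoholic fermentation, by which plant cells regenerate NAD+ when oxygen is short. It had 715, 341 and 1162 in Epi-df, against 3055, 4941 and 2549 in the wild type, and its Epi-df mean was 21.0% of the wild type mean. The arrays of both groups differed widely, by 3.41-fold within Epi-df and 1.94-fold within the wild type. Epi-df replicate 3 was the highest of its group, and without it the log2 ratio of -2.25 became -2.74.

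PDC2, a pyruvate decarboxylase gene, belongs to the step before. One of its probe sets had 6232, 5252 and 5817 in Epi-df, against 7914, 8808 and 7927 in the wild type, with groups that did not overlap. The log2 change of -0.51 ± 0.08 (SE) had a limma adjusted p of 0.0312 but lay under the 2-fold threshold, and the adjusted p was 0.0431 to 0.124 when 1 array was left out. A further PDC2 probe set had 783, 902 and 986 in Epi-df, against 1287, 1608 and 1406 in the wild type (log2 change -0.68, limma adjusted p = 0.0369, and 0.0409 to 0.134 when 1 array was left out). Of the 5 tested genes of the low-oxygen list other than Adh2, limma called 0 at 2-fold, and PDC2 was the 1 gene with an unadjusted p under 0.05. SUS1 and SUS2, for sucrose synthases, had log2 changes of -0.11 ± 0.17 and 0.02 ± 0.07.

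APY3, listed also as ADPase, encodes an apyrase, an enzyme that removes phosphate from nucleotides such as ATP and ADP. It had 607, 527 and 686 in Epi-df, against 2796, 2396 and 1742 in the wild type, a log2 ratio of -1.93. The lowest wild type array was still 2.54 times the highest Epi-df array. APY2, the other apyrase gene found by name, had 1249, 956 and 1395 in Epi-df and 1371, 1137 and 1261 in the wild type. Its groups overlapped (log2 change -0.08 ± 0.15, limma adjusted p = 0.886).

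Among the loci without a name, LOC4335593 on chromosome 4 had 108, 54.7 and 227 in Epi-df, against 748, 739 and 683 in the wild type. The wild type arrays were close together and the Epi-df arrays were not. Without Epi-df replicate 3 its log2 ratio of -2.48 became -3.16, which moves the ratio of the means by 1.598-fold. LOC4343660 on chromosome 7 had 141, 97.8 and 209.9 in Epi-df, against 662, 547 and 604 in the wild type. LOC4340843 on chromosome 6 had 403, 299.9 and 552 in Epi-df, against 1179, 1139 and 1181 in the wild type. In these 3 loci Epi-df replicate 3 was the highest and replicate 2 the lowest of the group.

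LOC4325978 on chromosome 1 had 1086, 953 and 1079 in Epi-df, against 4027, 3739 and 2698 in the wild type. LOC4333070 on chromosome 3 had 324, 517 and 556 in Epi-df, against 1886, 1858 and 1344 in the wild type. In both, as in APY3, wild type replicate 3 lay well under the other wild type arrays. In the Epi-df arrays the 3 genes had no common order.

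In other falls the wild type arrays differed little. LOC4342731 on chromosome 7 had 190.1, 195 and 212 in Epi-df, against 576, 635 and 581 in the wild type. Os.38113.1.S1_at and Os.38113.1.S2_at, which share its design cluster but are given to no single gene, had log2 ratios of -0.04 and -0.38, and the groups overlapped in the first and were apart in the second. LOC4339946 on chromosome 6 had 205, 222 and 197 in Epi-df and 482, 543 and 467 in the wild type. LOC4344018 on chromosome 7 had 487, 341 and 388 in Epi-df, against 1059, 1051 and 1136 in the wild type. In these 3 loci the Epi-df means were 33.3%, 41.9% and 37.5% of the wild type means.

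LOC4327803 on chromosome 1 had 233, 207 and 118 in Epi-df, against 499.99, 507 and 579 in the wild type. LOC4347640 on chromosome 9 had 143, 186 and 194 in Epi-df and 396, 514 and 469 in the wild type. The first was lowest and the second highest in Epi-df replicate 3, and the Epi-df means were 35.2% and 37.9% of the wild type means.

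The 13 partial falls without a single annotated gene spanned Epi-df means of 15.9% to 43.0% of the wild type means. Os.7695.1.S1_at, the shallowest, had 1471, 1497 and 1375 in Epi-df, against 3139, 3599 and 3361 in the wild type. OsAffx.13763.1.S1_at had 578, 521 and 510.1 in Epi-df, against 1672, 1741 and 1714 in the wild type. Within each group these arrays differed little.

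OsAffx.14656.1.S1_at had the lowest Epi-df mean relative to the wild type of the 13. It stood at 89.7, 52.1 and 35.6 in Epi-df and at 329, 415 and 372 in the wild type. All of its Epi-df values lay under the medians of their arrays, but its gap of 3.66-fold was too narrow for the class of near-complete losses. Os.17356.1.A1_a_at, with a gap of 3.71-fold, had 75.9, 80.8 and 129.6 in Epi-df, against 540, 638 and 481 in the wild type. OsAffx.25974.1.S1_at had 244, 177 and 149.9 in Epi-df, against 833, 945 and 868 in the wild type.

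Os.26767.1.A1_at had 288, 275 and 298 in Epi-df, against 1249, 999 and 1130.1 in the wild type, and its Epi-df arrays differed by 1.08-fold at most. Os.46662.2.S1_s_at had 136, 143 and 149.7 in Epi-df and 466, 449.4 and 472 in the wild type. The probe set Os.46662.2.S1_x_at of the same cluster did not follow it, with 86.9, 69.1 and 81.0 in Epi-df and 79.1, 86.2 and 72.5 in the wild type. Nor did Os.46662.1.S1_at, given to LOC4348931, with 127, 95.85 and 135 in Epi-df, against 94.1, 95.78 and 77.6 in the wild type, where the groups just failed to overlap with Epi-df the higher. Os.24041.1.A1_at had 176, 154 and 111 in Epi-df, against 508, 467 and 557 in the wild type.

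Os.6764.1.S1_at had 401, 204 and 329.9 in Epi-df, against 1094, 1900.2 and 1472 in the wild type. A further probe set of its cluster, which the annotation gives to LOC4333735, had 2221, 1533 and 2027 in Epi-df and 3770.1, 4841 and 4274 in the wild type. Both were lowest in Epi-df replicate 2 and highest in wild type replicate 2, and in both the groups were apart. Os.47730.1.S1_x_at had 141, 141 and 157 in Epi-df, against 596, 551 and 343 in the wild type, and a further probe set of its cluster had 75.3, 51.8 and 49.5 in Epi-df and 259.7, 255 and 143 in the wild type. Wild type replicate 3 was the lowest wild type array for this pair.

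OsAffx.21964.1.S1_at had 513, 559 and 445 in Epi-df, against 1298, 1375 and 1277 in the wild type. Os.9296.1.A1_at had 389.9, 228 and 449.6 in Epi-df, against 1043, 962 and 956 in the wild type. The wild type arrays were close together in both, and Epi-df replicate 2 stood low in the second.

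Spread between replicates differed widely among the 45 probe sets. The ratio of the highest to the lowest array had a median of 1.59 within Epi-df and 1.21 within the wild type, while over the 16230 probe sets at the same wild type floor it was 1.19 and 1.13. The ratio was over 2 in 12 of the 45 within Epi-df and in 2 within the wild type. Over the 16230 it was over 2 in 504 (3.1%) within Epi-df and in 176 (1.1%) within the wild type. In the wild type, replicate 3 was the lowest array in 19 of the 45 probe sets, against 4908 of the 16230, and replicate 2 the highest in 21, against 5282 of the 16230. In Epi-df, replicate 3 was the highest in 21, against 5195 of the 16230, and replicate 2 the lowest in 18, against 5725 of the 16230. The rule asks for low Epi-df values, and whether the wider Epi-df ratio goes with the lower level was not tested.

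The widest spread was that of LOC4351514, on chromosome 12. It had 427, 112 and 40.3 in Epi-df, against 2760 (replicate 1), 1662 and 909 in the wild type. Within Epi-df the arrays differed by 10.6-fold and within the wild type by 3.04-fold, and this is the 1 probe set of the 45 that the limma fit did not call. Without Epi-df replicate 1 its log2 ratio of -3.20 became -4.55. LOC4336447, on chromosome 4, was the other with a wild type spread over 2-fold, at 79.0, 54.3 and 104 in Epi-df, against 795, 476 and 301 in the wild type. Among the wild type arrays both were highest in replicate 1 and lowest in replicate 3, as was the summed TIFY level. The same held for APY3, LOC4325978 and LOC4333070, among others. Within Epi-df the summed TIFY level was highest in replicate 1 and lowest in replicate 2. There LOC4351514 was lowest in replicate 3, and LOC4336447 was highest in replicate 3. Whether the wound response plays a part in these loci was not tested.

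The 28 genes lay on 10 of the 12 chromosomes, with none on chromosomes 5 and 10 and 4 each on chromosomes 4, 7 and 8. LOC4344914 and LOC9271323 on chromosome 8 are next to each other, with 0 protein-coding genes between them in the gene table. LOC9271323 was a shallow case, at 972, 879.6 and 789 in Epi-df, against 2057, 1956 and 1969 in the wild type, and its further probe set had 1609.7, 1235 and 1287 in Epi-df and 2852, 2903 and 3108 in the wild type. Of 7 other measured genes within 6 places of the pair, 5 were tested and limma called 0, with 1 at an unadjusted p under 0.05. The log2 ratios of the group means of all 7 lay between -0.40 and 0.05. The gene with the unadjusted p, LOC4344913, is the direct neighbour of LOC4344914 on the other side, with 458, 443 and 512 in Epi-df and 628, 567 and 666 in the wild type. Its groups did not overlap, and its log2 change of -0.39 ± 0.10 (SE) did not pass (limma adjusted p = 0.111, and 0.0950 to 0.335 when 1 array was left out).

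On chromosome 4, 18 protein-coding genes lie between LOC4335497 and LOC4335518. Of 9 other measured genes between and around them 7 were tested and limma called 0, with 2 at an unadjusted p under 0.05. The log2 ratios of the group means of all 9 lay between -0.25 and 1.06. The highest was that of LOC4335515, 1 of the 2 with an unadjusted p under 0.05. It stood higher in Epi-df, with 234, 439 and 276, against 167, 146 and 143 in the wild type. Its limma log2 change of 0.94 ± 0.21 (SE) did not pass (limma adjusted p = 0.0784, and 0.0488 to 0.229 when 1 array was left out). SWEET14 and LOC4350599 on chromosome 11 had 31 protein-coding genes between them, and all other pairs of chosen genes on a chromosome were at least 76 genes apart. Whether such distances are closer than those of other genes was not tested.

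The limits of the rule cut through a continuous range. Just inside the 2-fold gap lay LOC4342852, LOC4329105 and LOC9271323, with a lowest wild type value 2.03, 2.02 and 2.01 times the highest Epi-df value. LOC4342852 had 419, 364 and 347 in Epi-df, against 875, 883 and 849 in the wild type, and LOC4329105 had 391, 341 and 391 in Epi-df, against 886, 905 and 788 in the wild type. Just outside it lay OsAffx.18899.1.S1_at, Os.38444.2.S1_at and OsAffx.10449.1.S1_x_at, at 1.994, 1.989 and 1.987.

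At the wild type floor, the probe sets with the lowest wild type value just inside were those of LOC4336447 (301), LOC4331629 (307) and OsAffx.25272.1.S1_at (319). The last had 65.2, 129.6 and 141 in Epi-df, against 440.4, 451 and 319 in the wild type. Just outside lay OsAffx.25846.1.S1_s_at, with 65.7, 54.3 and 57.5 in Epi-df and 296, 464 and 293 in the wild type. LOC4330641 (lowest wild type value 287) and LOC4334975 (282) followed.

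Other lists of stress and metabolism genes held none of the 45 probe sets. Limma called 1 of 5 tested DREB1 genes, 1 of 10 SAPK kinase genes, 1 of 7 diterpenoid phytoalexin genes and 1 of 5 genes of purine and ureide breakdown, each lower in Epi-df. Over all tested probe sets 0.434% were called lower. Because the lists were chosen with earlier results of these data known, these counts are a description only. The called genes were DREB1A, SAPK9, CYP71Z6 and ALN. DREB1A had 990, 680 and 567 in Epi-df, against 1776, 1499 and 1661 in the wild type, and SAPK9 had 645, 729 and 556 in Epi-df, against 1263, 1471 and 1260 in the wild type. In both the groups were apart, but with a gap under 2-fold. The call of DREB1A was lost in 5 of 6 fits on fewer arrays, all but the one that dropped Epi-df replicate 1 (limma adjusted p 0.0443 to 0.138 in these, with a change under 2-fold without Epi-df replicate 3). That of SAPK9 was lost without wild type replicate 2 or Epi-df replicate 3, where its change was under 2-fold. CYP71Z6 was too dim in the wild type for the rule, with 92.85, 75.2 and 62.6 in Epi-df, against 246, 221 and 211 in the wild type. ALN had 1479, 901 and 1049 in Epi-df, against 2727, 1983 and 3338 in the wild type, and its limma adjusted p of 0.0483 was 0.0405 to 0.191 when 1 array was left out.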

How the data were processed

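Total RNA of rice seedlings was measured on 6 Affymetrix rice genome arrays, 3 of Epi-df and 3 of the wild type, with groups and replicate numbers from the sample titles. The values are probe set intensities, not logged, as the authors deposited them, and the submitters' processing notes name MAS5; version, scaling target and genome build are not given in the sources used here, and no detection calls were used. The arrays were not scaled further. Members were taken by the rule stated in the report, and the members and all gene lists were chosen with earlier results of these data known. Near-complete losses were set apart by 2 conditions: every Epi-df value under its array's median, and a lowest wild type value at least 5 times the highest Epi-df value.

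Across all probe sets, log2(intensity + 16) was fitted with limma 3.58.1 in R 4.3.3 (intensity trend, two-sided, no replicate block). The 34355 probe sets whose mean lay at or above the 40th percentile entered it. Probe sets were called where the Benjamini-Hochberg adjusted p was below 0.05 and the fold change 2 or more, the fold that the series' design names. The fit was tested on simulated data. Since the rule used the same contrast, no p is given for a member. Log2 ratios of members are log2 of the ratio of the group means, with no pseudocount.

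The platform annotation pairs 22436 of the probe sets with 1 gene, 95 with several and leaves 34727 unnamed here. Names came from the RefSeq gene table (assembly ASM3414082v1), which also gave the order of protein-coding genes; none of its coordinates are used. Named are all members with a gene name, all near-complete losses, the members with the widest gap between the groups, those at the limits of the rule and neighbouring member genes. The other members, and the genes next to members, were named after their values were seen. Alternatives were other limits of the rule, pseudocounts, filters, scalings and spread models, a replicate block, leaving out each array and dropping all probe sets marked _s_at or _x_at. Samples with the same replicate number deviated from their group means with correlations of 0.14, 0.34 and -0.05 for numbers 1, 2 and 3, so the numbers were not taken to pair the samples. Promoter and protein sequences were not analysed here.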

Additional observations from a re-analysis of the deposited data

How the results depend on the processing

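The count of 45 probe sets was 148 with a gap of 1.5-fold and 18 with one of 3-fold. Leaving out 1 array eases the rule, and the count then lay between 51 and 122, with the original 45 in each of these lists; the highest counts were 122 (no wild type replicate 3) and 94 (no Epi-df replicate 1). With quantile normalization 43 probe sets met the rule, all among the 45, and with arrays scaled to the same median 46 did, of which 44 were among them. The 6 near-complete losses became 10 with no condition on the Epi-df level, and numbered 4 to 8 under the other alternatives run. The 209 probe sets that limma called became 617 with no fold threshold (221 higher, 396 lower) and 319 with a replicate block (79 higher, 240 lower), and lay between 108 and 250 when 1 array was left out, with 108 for wild type replicate 1 and 114 for wild type replicate 2. The replicates share only a number in the labels. Those with numbers 1 and 2 correlated best with each other, at 0.14 against 0.12 and at 0.34 against -0.05 for the best other number. Those with number 3 did not, at -0.05 against 0.13. Of the 45, 44 were called with the block and 34 to 44 when 1 array was left out, the lowest being 34 for wild type replicate 1 and 35 for wild type replicate 2. Each of these fits tested 34355 probe sets. The rule used the same contrast on the same arrays, so nothing further is read from these member counts. Under the alternatives run for the log2 ratios of the 45, 400 values moved by less than the replicate spread and 5 by more. The 5 were LOC4351514 without Epi-df replicate 1 and otherwise values with a pseudocount of 16. All ratios kept their sign. The rule itself fixes the sign when an array is left out or a pseudocount is added, so nothing is read from this. The number of arrays limits the precision, and the depth of a near-complete loss rests on Epi-df values near the dim end of the array.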
